A study of Mus musculus with 9 samples.

Results

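The synaptic vesicle release machinery is the set of presynaptic proteins that dock transmitter-filled vesicles at the terminal, prime them and fuse them with the plasma membrane when calcium enters. It was followed here through 41 genes chosen by name, which were matched by symbol to the Ensembl identifiers of the count table. All 41 were among the 52550 genes in the table and among the 18699 genes that passed the filter on low counts. The genes comprised the SNARE proteins and the factors that take them apart, complexins, synaptotagmins, Doc2 proteins, synapsins, proteins of the vesicle membrane, Rab3 GTPases, and proteins of the active zone that prime vesicles.

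The spinal cord of 9 adult female C57BL/6N mice was sequenced on day 7, with 3 mice in each of 3 groups. Sham mice had a laminectomy without injury. SCI mice had a thoracic contusion followed by injections of the vehicle dimethyl sulfoxide into the peritoneum, and SCI+FIPI mice had the same contusion followed by daily injections of FIPI, an inhibitor of phospholipase D, the enzyme that makes phosphatidic acid from phosphatidylcholine. Sham mice are not described as having received vehicle, so that contusion and vehicle cannot be told apart between SCI and Sham. The segment taken held the lesion and its surroundings, and every cell type in it contributed RNA.

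Neurotransmitter release in the cord depends on a core fusion complex of a vesicle SNARE (Vamp1 or Vamp2) and 2 target membrane SNAREs (Snap25 and a syntaxin), which synaptotagmins link to calcium and complexins clamp. The ATPase Nsf and its adaptor Napb take the spent complex apart, while Rab3 proteins, RIM proteins, Munc13 proteins, Bassoon and Piccolo hold vesicles at the active zone and ready them. Most of these genes are expressed mainly in neurons, but some, such as Syt11 and Syngr1, are also expressed in glia.

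Promoter sequences, taken from RefSeq on GRCm38.p6 as 250 bases before to 50 bases after the annotated start, were matched for 28 of the 41 genes, with 37 windows in all. The 13 without a matched window were Snap25, Vamp2, Syt4, Syt5, Syt7, Syt12, Syt13, Doc2a, Doc2b, Syn3, Syngr3, Rims2 and Rims4. The windows of 5 genes are shown in lower case, with capitals marking a GC box (GGGCGG), the left block of the RE1 element (TTCAGCACC) or a cyclic AMP response element (TGACGTCA) on either strand. Rab3c is shown because its transcript fell the most after injury, Vamp1 because its fall exceeded that of its paralog, Syn1 and Unc13a because they are the 2 genes whose windows held the RE1 left block, and Stx1a because its transcript level stayed close to Sham.
Rab3c promoter, chr13:110280157-110280456 (minus strand): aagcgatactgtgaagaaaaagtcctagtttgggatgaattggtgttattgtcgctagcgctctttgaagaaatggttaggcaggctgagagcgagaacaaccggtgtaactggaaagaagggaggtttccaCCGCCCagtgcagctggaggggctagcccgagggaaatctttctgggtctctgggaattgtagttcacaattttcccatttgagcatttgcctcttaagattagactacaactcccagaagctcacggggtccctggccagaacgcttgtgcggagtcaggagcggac
Vamp1 promoter, chr6:125215331-125215630 (plus strand): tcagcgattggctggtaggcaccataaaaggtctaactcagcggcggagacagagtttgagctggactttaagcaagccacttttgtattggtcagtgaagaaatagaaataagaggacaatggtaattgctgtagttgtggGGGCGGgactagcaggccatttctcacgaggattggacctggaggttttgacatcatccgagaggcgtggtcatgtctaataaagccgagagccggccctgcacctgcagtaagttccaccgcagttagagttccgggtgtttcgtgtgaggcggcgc
Syn1 promoter, chrX:20920869-20921168 (minus strand): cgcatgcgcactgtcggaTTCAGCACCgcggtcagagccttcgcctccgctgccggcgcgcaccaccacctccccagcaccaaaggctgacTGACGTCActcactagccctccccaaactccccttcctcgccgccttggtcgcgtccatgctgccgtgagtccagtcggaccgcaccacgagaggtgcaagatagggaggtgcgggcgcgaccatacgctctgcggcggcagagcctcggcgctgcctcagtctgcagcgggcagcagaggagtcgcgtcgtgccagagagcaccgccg
Unc13a promoter, chr8:71671708-71672007 (minus strand): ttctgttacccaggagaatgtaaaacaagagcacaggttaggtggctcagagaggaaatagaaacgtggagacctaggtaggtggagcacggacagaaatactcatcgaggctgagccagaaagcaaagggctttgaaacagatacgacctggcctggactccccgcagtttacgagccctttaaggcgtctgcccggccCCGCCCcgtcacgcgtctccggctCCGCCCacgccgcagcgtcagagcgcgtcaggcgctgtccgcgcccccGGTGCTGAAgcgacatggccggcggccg
Stx1a promoter, chr5:135023232-135023531 (plus strand): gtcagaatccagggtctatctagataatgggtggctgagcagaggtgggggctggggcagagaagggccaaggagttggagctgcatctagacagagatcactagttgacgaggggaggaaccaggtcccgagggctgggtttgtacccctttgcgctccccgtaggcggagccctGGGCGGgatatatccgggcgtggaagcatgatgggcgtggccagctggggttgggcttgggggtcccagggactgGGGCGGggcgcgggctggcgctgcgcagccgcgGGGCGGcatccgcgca

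The GC box was found in 25 of the 37 windows, 67.6%, against 35.7% of the 32851 promoter windows of all genes. The window shown for Stx1a held 3 GC boxes, that for Unc13a 2, those for Rab3c and Vamp1 1 each, and that for Syn1 0. The median number of CG dinucleotides was 18 per window, against 7 over all windows. The RE1 left block was in 5.41% of the members' windows and 0.371% of all windows, and the 2 windows that held it belonged to Syn1 and Unc13a. The RE1 right block (GGACAGC) was in 10.8% of the members' windows and 6.56% of all windows, the cyclic AMP response element in 2.7% and 1.79%, and the TATA box (TATAAA) in 8.11% and 13.6%. These are matches of letters in short windows. Binding was not measured, and a relation of motifs to the changes was not tested.

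Total counts lay between 20806000 and 24582377 per mouse. A call in edgeR's quasi-likelihood test needed a log2 fold change of 0.5 or more in size together with a Benjamini-Hochberg adjusted p under 0.05, and levels are given as CPM, the count of a gene relative to the TMM-scaled library size. Scn10a, which marks pain-sensing ganglion neurons, and Pmp2, which marks myelinating Schwann cells, were at or near 0 in every mouse. Other markers on those lists were present, such as Prph at 34.6 to 74.6 CPM and Calca at 8.14 to 33.4 CPM, which spinal motor neurons also express. The 8 sensory neuron markers summed to 52.8 CPM in the lowest mouse and 119.5 CPM in the highest, and the 4 Schwann cell markers to 413 and 969.5 CPM. The summed level of 14 neuron markers was 8346 to 9553 CPM in Sham, 3318 to 4280 in SCI and 4950 to 5632 in SCI+FIPI. The summed level of 6 myeloid markers moved the other way, at 286 to 409 CPM in Sham, 5389 to 6554 in SCI and 3893 to 5123 in SCI+FIPI.

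On day 7 after contusion the release machinery was lower almost throughout. Of the 41 genes, 39 were called lower in SCI than in Sham and 0 were called higher, where 22.5% of all genes tested were called lower and 24.4% higher. The median log2 fold change was -1.40, with a range from -2.02 for Rab3c to 0.02 for Stx1a, against a median of 0 over all genes tested. In 40 genes every SCI mouse lay below every Sham mouse, as did 35.0% of all genes. The sum over the 41 genes was 12094 to 13740 CPM in Sham mice and 4128 to 5295 CPM in SCI mice.

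All 14 neuron markers were called lower in the same comparison, by a median of -1.33 on the log2 scale and over a range from -2.02 to -0.52. Of the 41 genes, 39 fell inside that range and 2 lay above it. The share of all genes inside it was not computed. In bulk cord, fewer neurons and less of a transcript per neuron cannot be told apart. All 6 myeloid markers were called higher, with a median of 2.16, and the part of other cell types in the members' fall was not tested.

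**Figure D1:**
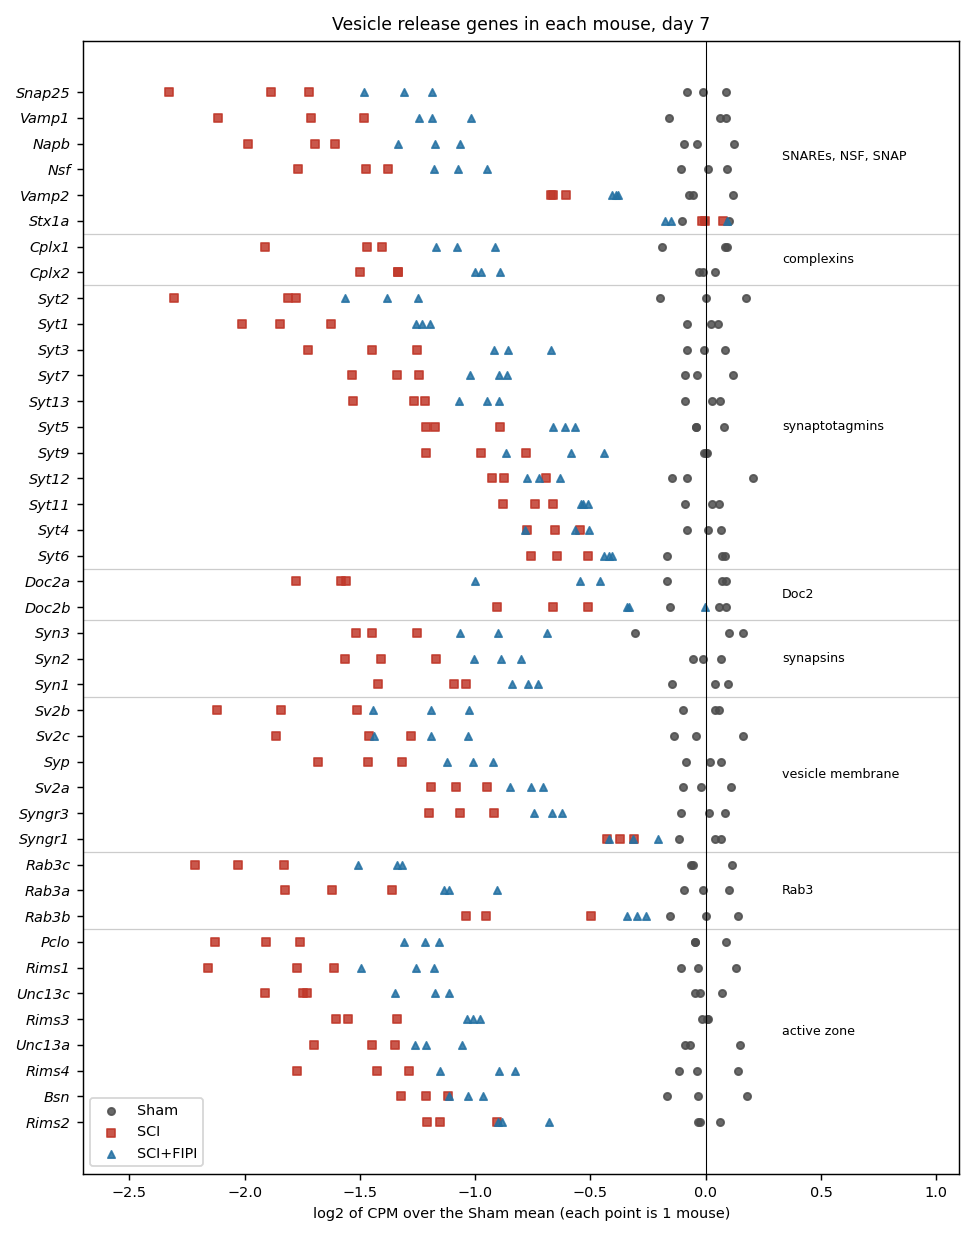
Log2 ratio of each mouse's CPM to the Sham mean, for the 41 genes grouped by role, with each gene as a row and each mouse as a point. The SCI points are lowest for nearly every gene, and the SCI+FIPI points lie between them and Sham for most. The Stx1a points stay near 0 in all 9 mice.

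Among the SNARE proteins, 5 of 6 genes were called lower after injury. Snap25, whose protein supplies part of the SNARE bundle from the plasma membrane, was at 2042, 1942 and 2187 CPM in the Sham mice and at 625, 556 and 410 CPM in the SCI mice. The SCI mice held 25.8% of the Sham level, with a log2 fold change of -1.96 (SE 0.141, adjusted p = 3.81e-07). Vamp1, the vesicle SNARE of many spinal and motor synapses, was at 1495, 1262 and 1469 CPM in Sham and 504, 429 and 325 CPM in SCI, and fell by 1.75 on the log2 scale. Vamp2, its paralog, was at 286, 326 and 289 CPM in Sham and 197, 188 and 190 CPM in SCI, and fell by 0.65. No SCI mouse overlapped the Sham mice for either gene, and the larger fall was that of Vamp1. Nsf, the ATPase that takes SNARE complexes apart, fell to 34.6% of Sham and Napb, its adaptor, to 29.7%.

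Stx1a, a plasma membrane syntaxin, was the member whose SCI and Sham mice overlapped. Its level was 22.5, 24.2 and 21.02 CPM in Sham and 22.5, 22.3 and 23.8 CPM in SCI, so the groups overlapped, with a log2 fold change of 0.02 (SE 0.0902, adjusted p = 0.865). The gene lies at chr5:135023482-135051100 on the plus strand of GRCm38. The counts of Stx1a were low relative to the other SNAREs, and the sign of its change depended on the processing. With offsets for GC content and length its log2 fold change was -0.29 (adjusted p = 0.00633), under the fold limit.

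The 2 complexins, which bind the assembled SNARE bundle and control the final step of fusion, both fell. Cplx1 was at 1432, 1184 and 1439 CPM in Sham and 489, 511 and 360 CPM in SCI, a log2 fold change of -1.58 (SE 0.134, adjusted p = 1.3e-06). Cplx2 fell by 1.39 on the log2 scale, and its 3 SCI mice lay close together at 81.8 to 91.7 CPM. Per length of exon, Cplx1 was the highest of the 41 in each group, at 621 ± 59.4 FPKM in Sham (SD, n = 3), 204 ± 36.5 in SCI and 299 ± 26.7 in SCI+FIPI.

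All 11 synaptotagmins were called lower, from -1.95 for Syt2 to -0.63 for Syt6 on the log2 scale, with a median of -1.09. Syt2, a fast calcium sensor of hindbrain and spinal synapses, was at 665, 580 and 750 CPM in Sham and 194, 189 and 135 CPM in SCI. Syt1, the fast sensor of forebrain synapses, was at 149, 163 and 160 CPM in Sham and 51.0, 43.8 and 39.1 in SCI, and fell by 1.82. These 2 sensors therefore moved nearly alike. The smaller falls belonged to Syt4, at -0.65, Syt6, at -0.63, Syt11, at -0.76, and Syt12, at -0.83, none of which is a fast sensor. Syt11, the synaptotagmin with the highest CPM and one that glia also express, was at 1027, 949 and 1051 CPM in Sham and 637, 604 and 549 CPM in SCI. Syt6 was at 34.7, 34.4 and 29.2 CPM in Sham and 20.97, 23.03 and 19.4 CPM in SCI, a separation between the groups at low level. The remaining synaptotagmins lay in between, with Syt3 at -1.46, Syt5 at -1.09, Syt7, a slow sensor of asynchronous release, at -1.37, Syt9 at -0.98 and Syt13 at -1.33 on the log2 scale.

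The Doc2 proteins, soluble calcium sensors of spontaneous release, were both called lower at low levels. Doc2a was at 9.87, 9.98 and 8.36 CPM in Sham and 3.19, 3.14 and 2.74 CPM in SCI, a log2 fold change of -1.63 (SE 0.164). Doc2b was at 9.29, 11.0 and 10.8 CPM in Sham and 6.54, 7.28 and 5.53 CPM in SCI, a log2 fold change of -0.68 (SE 0.14). Doc2a lies at chr7:126847416-126852705 on the plus strand, where 39.35% of the exonic bases overlap Ino80e on the minus strand. Other members overlap genes on the opposite strand too, among them Syt12 over 17.15% of its exonic bases, Syp over 16.79%, Syt4 over 14.54% and Syn3 over 14.11%. Whether counting used the strand is not given in the sources used here.

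The synapsins, phosphoproteins that tether vesicles in the reserve pool, all fell together, with log2 fold changes of -1.17 for Syn1, -1.37 for Syn2 and -1.40 for Syn3. Syn1 was at 373, 328 and 388 CPM in Sham and 170, 177 and 136 CPM in SCI. Of the 6 vesicle membrane proteins, 5 were called lower. Sv2a, a vesicle glycoprotein, was at 460, 436 and 502 CPM in Sham and 242, 220 and 204 CPM in SCI, a log2 fold change of -1.07. Its relatives Sv2b and Sv2c fell by 1.80 and 1.51, and Syp, the synaptophysin of small vesicles, fell by 1.48, while Syngr3, a synaptogyrin of neurons, fell by 1.06. Syngr1, a synaptogyrin, was at 333, 299 and 339 CPM in Sham and 260.5, 241 and 250.4 CPM in SCI. All 3 SCI mice lay below the Sham range, but its log2 fold change of -0.37 (adjusted p = 0.000296) was under the limit of 0.5.

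All 3 Rab3 GTPases, which recruit vesicles to the active zone, were called lower, and Rab3c had the largest fall of the 41. It was at 228, 227 and 256 CPM in Sham and 66.6, 58.2 and 51.1 CPM in SCI, a log2 fold change of -2.02 (SE 0.0922, adjusted p = 7.54e-10). The gene lies at chr13:110054187-110280996 on the minus strand. Rab3a, the abundant form at synapses, was at 535, 468 and 495 CPM in Sham and 195, 163 and 141 CPM in SCI, a log2 fold change of -1.59. Rab3b had the smallest change of the 3, -0.81.

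All 8 active zone and priming genes were called lower, by 1.08 to 1.92 on the log2 scale. Pclo, which encodes the scaffold Piccolo, was at 103, 103 and 114 CPM in Sham and 31.5, 28.4 and 24.4 CPM in SCI, a log2 fold change of -1.92 (SE 0.0844). Bsn, which encodes the related scaffold Bassoon, was at 148, 135 and 171 CPM in Sham and 65.2, 69.7 and 60.4 CPM in SCI, a log2 fold change of -1.22 (SE 0.0845). The priming factor Unc13a was at 196, 193 and 228 CPM in Sham and 80.7, 75.3 and 63.3 CPM in SCI, with a log2 fold change of -1.49, and Unc13c was at -1.79. The RIM genes, which link calcium channels to vesicles, fell by 1.83 for Rims1, 1.08 for Rims2, 1.49 for Rims3 and 1.48 for Rims4.

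The calls in SCI against Sham did not depend on 1 mouse, since each of the 39 held in all 9 fits that left a mouse out. Within SCI, mouse 3 had the lowest level of 36 of the 41 genes and mouse 1 the highest of 28, and the neuron marker sum was also lowest in SCI mouse 3. The part of that shared ordering in the spread of single genes was not tested.

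**Figure D2:**
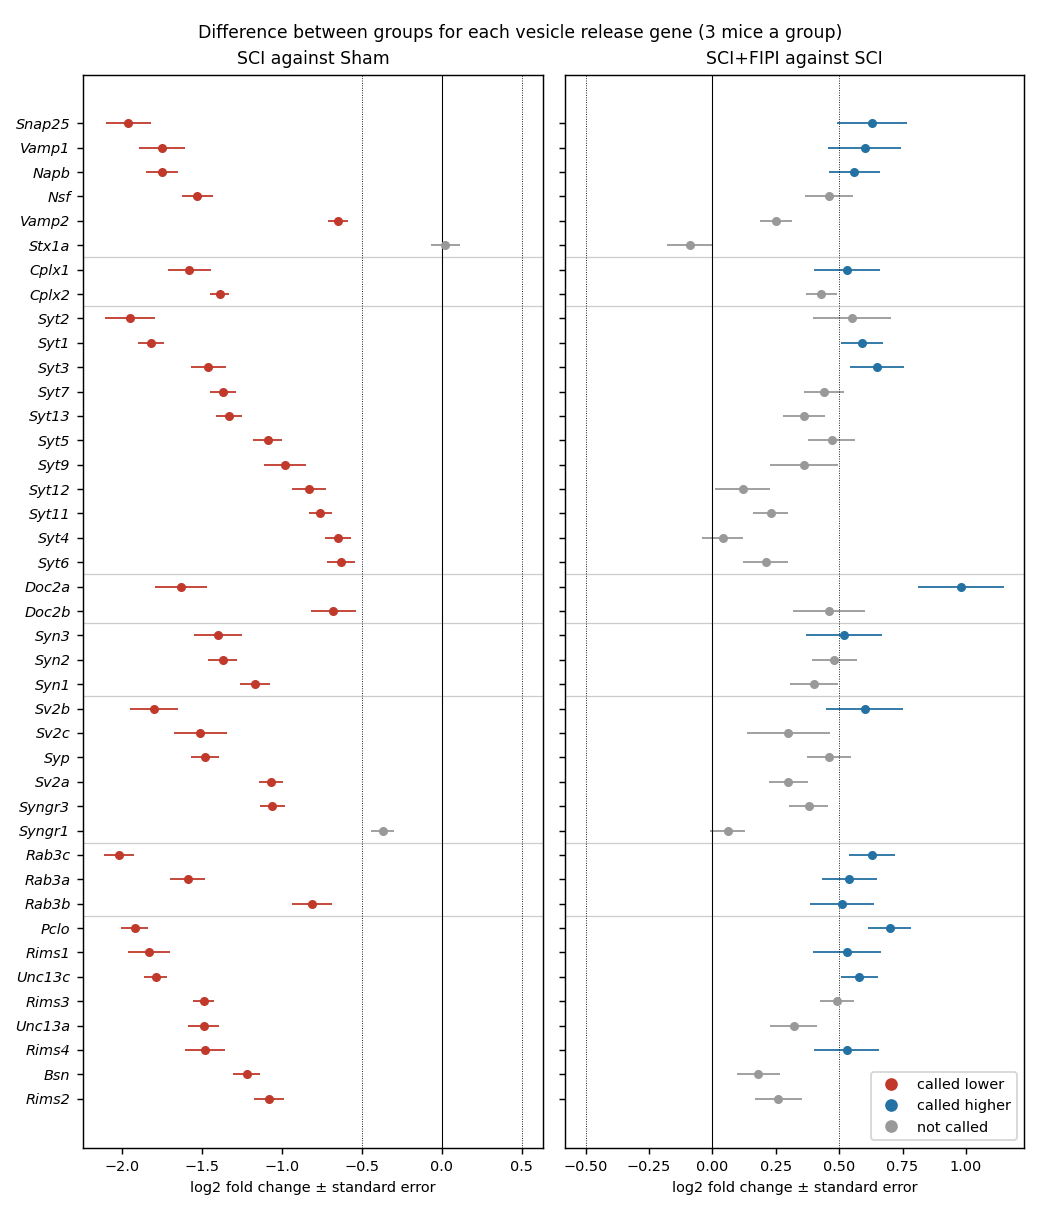
Log2 fold change with its SE for each of the 41 genes, for SCI against Sham and for SCI+FIPI against SCI, with dotted lines at 0.5 in both directions. The left points lie between -2.02 and 0.02 and the right points between -0.09 and 0.98, with red for called lower, blue for called higher and grey for no call.

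Treatment of injured mice with FIPI was accompanied by higher levels of part of the machinery. In SCI+FIPI against SCI, 16 of the 41 genes were called higher and 0 lower, where 2.36% of all genes tested were called higher and 0.695% lower. The median log2 fold change was 0.46, with a range from -0.09 for Stx1a to 0.98 for Doc2a, and 40 of the 41 values were above 0. In 35 genes every SCI+FIPI mouse lay above every SCI mouse, as did 15.7% of all genes. With the adjusted p alone, 28 were higher and 0 lower, against 6.04% and 3.58% of all genes, and at an unadjusted p under 0.05 in either direction there were 35, against 25.2% of all genes. This comparison shares the SCI mice with the comparison of SCI and Sham, so that any deviation of those 3 mice enters both.

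The 14 neuron markers moved in the same direction, with 5 called higher and a median of 0.46. The 6 myeloid markers were at a median of -0.44 with 0 called in edgeR at the adjusted threshold. At an unadjusted p under 0.05 there were 2, against 25.2% of all genes. All 6 lay without overlap below SCI, as did 14.5% of all genes. The part of these marker shifts in the members' higher levels was not tested.

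The genes called higher were Snap25, Vamp1 and Napb among the SNARE genes, Cplx1, Syt1 and Syt3, Doc2a, Syn3, Sv2b, all 3 Rab3 genes, and Rims1, Rims4, Unc13c and Pclo at the active zone. Doc2a was at 6.84, 6.44 and 4.70 CPM in SCI+FIPI, 198% of its SCI level, with a log2 fold change of 0.98 (SE 0.168, adjusted p = 0.00487). All 3 treated mice were above the SCI mice, which were at 2.74 to 3.19 CPM. Pclo was at 46.0, 47.9 and 43.1 CPM in SCI+FIPI, a log2 fold change of 0.70 (SE 0.0847, adjusted p = 0.00156). Syt3, a calcium sensor with high affinity, was at 42.6, 37.2 and 30.6 CPM in SCI and 53.6, 63.6 and 55.9 CPM in SCI+FIPI, a log2 fold change of 0.65 (SE 0.107, adjusted p = 0.00595).

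Snap25 was at 830.5, 902 and 736 CPM in SCI+FIPI, a log2 fold change of 0.63 (SE 0.137, adjusted p = 0.0196). Rab3c, at 93.6, 95.2 and 83.4 CPM, was also at 0.63 (SE 0.0909, adjusted p = 0.00303). Neither gene's treated mice overlapped the SCI mice. Cplx1, at 640.3, 716 and 600.4 CPM, had a log2 fold change of 0.53 and Rab3a, at 227, 267 and 231 CPM, one of 0.54. The other calls were close in size, with log2 fold changes of 0.51 for Rab3b, 0.52 for Syn3, 0.53 for Rims1 and Rims4, 0.56 for Napb, 0.58 for Unc13c, 0.59 for Syt1, and 0.60 for Vamp1 and Sv2b.

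Of the 25 genes without a call, 12 had an adjusted p under 0.05 with a smaller fold, from 0.25 for Vamp2 to 0.49 for Rims3, among them Nsf at 0.46, Cplx2 at 0.43, Syn2 at 0.48 and Syp at 0.46. The other 13 missed the adjusted p, among them Bsn at 0.18, Rims2 at 0.26 and Sv2c at 0.30. Syt2 was at 147% of its SCI level, at 255, 280 and 225 CPM in SCI+FIPI, without overlap, but its adjusted p was 0.0573. Syt11 was at 694, 708 and 698 CPM (log2 fold change 0.23, adjusted p = 0.0529), Syn1 at 203, 219 and 213 CPM (0.40, adjusted p = 0.0206), Sv2a at 276, 286 and 259 CPM (0.30, adjusted p = 0.0234) and Unc13a at 85.8, 98.9 and 88.5 CPM (0.32, adjusted p = 0.054). These treated mice lay above the SCI mice, yet the differences were smaller than the fold limit. Stx1a, at 19.98, 20.3 and 24.03 CPM, was at -0.09 (SE 0.0902, adjusted p = 0.575). Syt4, a synaptotagmin of dense core vesicles, was at 66.8, 72.1 and 61.5 CPM in SCI and 74.1, 71.0 and 61.1 CPM in SCI+FIPI (0.04, SE 0.0793, adjusted p = 0.803). Syngr1, at 280.3, 260 and 242 CPM, was at 0.06 (SE 0.0704, adjusted p = 0.664). For these last 3 genes the groups overlapped.

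The number of members called higher moved with the mouse left out, and so did the share over all genes. Without SCI mouse 3, 6 of the 16 were still called, against 0.964% of all genes tested, and without SCI+FIPI mouse 2 also 6, against 0.87%. Without SCI mouse 2, 9 of the 16 were called (1.5% of all genes), and without SCI+FIPI mouse 1 also 9 (1.96%). Without SCI mouse 1 there were 21 calls, of which 15 were among the 16, against 4.09% of all genes. Each fit without 1 Sham mouse kept 14 or 15 of the 16 (2.19% to 2.3% of all genes). The fit without SCI+FIPI mouse 3 kept 12 of the 16 and added 3 (2.2%). Syt1, Syt3, Doc2a, Rab3c, Unc13c and Pclo were called in all 9. Within SCI+FIPI, mouse 2 had the highest level of 27 genes and mouse 3 the lowest of 25.

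Against Sham, the SCI+FIPI mice remained lower in most of the machinery, with 35 of 41 called lower and 0 higher. Of all genes tested, 17.0% were called lower and 21.2% higher. Over the 41 genes the median was -0.95, and in 39 every SCI+FIPI mouse lay below every Sham mouse, as did 32.9% of all genes. The largest differences were -1.39 for Rab3c, -1.39 for Syt2 and -1.32 for Snap25. The 6 without a call were Stx1a (-0.07), Doc2b (-0.22, adjusted p = 0.184), Rab3b (-0.30, adjusted p = 0.0503), Syngr1 (-0.31), Vamp2 (-0.39) and Syt6 (-0.42). Doc2b, at 10.3, 8.18 and 8.22 CPM in SCI+FIPI, overlapped the Sham mice, and Rab3b, at 21.01, 20.4 and 21.6 CPM, lay just under Sham at 28.4, 25.8 and 23.2. In 34 of the 41 genes every SCI+FIPI mouse was above every SCI mouse and below every Sham mouse, a pattern found in 12.1% of all genes tested.

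On the scale of FPKM, which divides by exonic length so that genes can be compared, the order in Sham was headed by Cplx1 at 621 ± 59.4 (SD, n = 3), Snap25 at 305 ± 14.6, Rab3a at 226 ± 13.7, Syt11 at 195 ± 7.86 and Vamp1 at 139 ± 11.1. Each of these stood apart from its neighbour by more than their SDs. Further down, Nsf at 91.4 ± 5.04, Syt2 at 87.6 ± 10.1, Syp at 81.8 ± 3.36 and Vamp2 at 79.4 ± 6.97 followed each other with differences inside their spread. The lowest was Syn3 at 1.27 ± 0.198. After injury Syt11 was second at 113 ± 8.49, Syngr1 moved from place 12 to 5 at 51.4 ± 2.18, Vamp2 from 11 to 6 at 49.7 ± 1.34 and Stx1a from 31 to 21, while Rab3c moved from 22 to 28 and Vamp1 from 5 to 9. Places 5 to 8 in SCI, held by Syngr1, Vamp2, Syn1 at 48.1 ± 6.54 and Sv2a at 47.2 ± 4.07, lay inside their spread, so their order is not resolved.

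Ratios within a mouse were used to compare paralogs and functional partners, since they do not depend on scaling. The log2 ratio of 2 genes did not overlap between SCI and Sham in 16 of 20 pairs, with 7 lower and 9 higher, and between SCI+FIPI and SCI in 9 of 20 pairs, with 4 lower and 5 higher. Over the 40 comparisons the exact two-sided permutation p was 0.1 in each of these, the smallest that 3 mice against 3 can give, and 0.16 after adjustment, so that no pair could pass a threshold of 0.05. Of all single genes tested, 35.6% lay higher and 35.0% lower without overlap in SCI against Sham. In SCI+FIPI against SCI the shares were 15.7% and 14.5%. Ratios of gene pairs at large were not computed, so the counts of pairs have no background of their own.

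Vamp1 stood at 3.87 to 5.23 times Vamp2 in Sham, at 1.71 to 2.55 times in SCI and at 2.57 to 3.03 times in SCI+FIPI. The injured mice thus had the lowest share of Vamp1 and the treated mice an intermediate one. The ratio of Syt1 to Syt4 was 1.48 to 1.51 in Sham, 0.61 to 0.765 in SCI and 0.906 to 1.08 in SCI+FIPI, and that of Syt1 to Syt11 changed by -1.06 on the log2 scale after injury and by 0.36 with FIPI. The CPM of Stx1a overlapped among all 3 groups. The active zone scaffolds parted as well, with the ratio of Bsn to Pclo at 1.3 to 1.51 in Sham, 2.05 to 2.44 in SCI and 1.54 to 1.68 in SCI+FIPI.

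In other pairs the groups overlapped, which with 3 mice a group does not show equal ratios. The ratio of Syt1 to Syt2 was 0.214 to 0.282 in Sham and 0.233 to 0.293 in SCI, that of Rims3 to Rims4 was 4.54 to 5.39 and 4.46 to 5.4, and that of Syn2 to Syn3 was 12.6 to 16.1 and 11.7 to 15.7. The log2 differences in these 3 were 0.14 (SE 0.156), -0.04 (SE 0.11) and -0.06 (SE 0.172), and that of Cplx1 to Cplx2, which also overlapped, was -0.20 (SE 0.131). A difference of the same size, 0.20 (SE 0.0994), was found for Syn1 to Syn2, whose groups did not overlap.

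**Figure D3:**
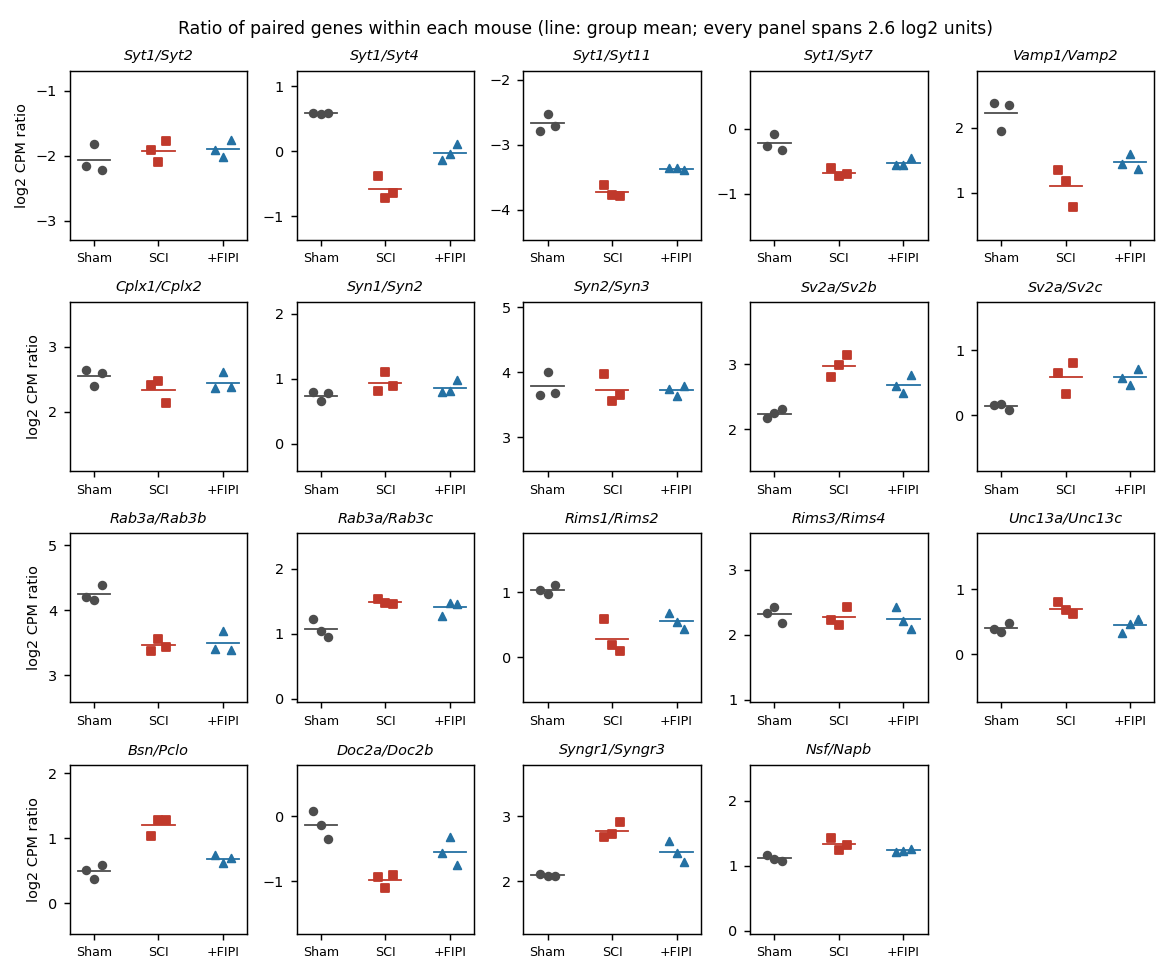
Log2 ratio of CPM between 2 genes in each mouse, for the 19 pairs in which both genes are among the 41, with every panel spanning 2.6 log2 units. Vamp1/Vamp2 and Syt1/Syt4 are lower in SCI than in Sham and higher again in SCI+FIPI, Bsn/Pclo goes the opposite way, and Syt1/Syt2 and Rims3/Rims4 overlap.

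Most of the listed genes outside the 41 that act at the same terminal moved with them. Of the 44 tested genes of a list of neuronal pathway genes, 33 were called lower and 0 higher in SCI against Sham, with a median of -1.27. Of all genes tested, 22.5% were called lower and 24.4% higher. The other 11 had no call, and 3 of the 44 had a log2 fold change above 0. In SCI+FIPI against SCI, 12 were called higher and 0 lower, with a median of 0.38, against 2.36% and 0.695% of all genes. The 3 largest falls after injury were Slc17a7, the vesicular glutamate transporter of cortical and sensory terminals, at -3.82 (SE 0.448), Stxbp5l, a syntaxin-binding tomosyn, at -2.42 and Syt10 at -2.16. Slc17a7 was at 3.16, 4.02 and 7.19 CPM in Sham and at 0.335, 0.207 and 0.464 CPM in SCI, with 5 counts in its lowest mouse, so that its fold carries a wide error. Among the genes called with FIPI, the 2 largest rises were Stxbp5l at 1.00 (SE 0.225, adjusted p = 0.0146) and Rab27b at 0.72.

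The vesicular transporters name the transmitters of the terminals. Slc17a6, for the main glutamate transporter of the cord, was at -1.89 after injury and 0.48 with FIPI. Slc32a1, for the GABA and glycine transporter, was at -1.73 and 0.56 (adjusted p = 0.0332), the 1 of the 6 called higher with FIPI. Slc18a3, for acetylcholine, was at -1.10 and 0.64 (adjusted p = 0.229), and Slc18a2, for monoamines, at -0.61 and -0.08. Slc17a8, a minor glutamate transporter, was at 0.46 and 0.13 with neither change called. Both glutamate transporters Slc17a6 and Slc17a7 and the inhibitory Slc32a1 were thus lower after injury.

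Most of the general exocytosis genes, which serve secretion in many cell types, rose after injury. Of 18 tested, 11 were called higher and 0 lower, with a median of 0.92, against 24.4% and 22.5% of all genes. With FIPI 0 were called in either direction in edgeR, with a median of -0.20. At an unadjusted p under 0.05 there were 7, against 25.2% of all genes. By the adjusted p alone 2 were lower and 0 higher, against 3.58% and 6.04%. Without overlap 8 lay below SCI and 1 above, against 14.5% and 15.7%. Syt8 was at 3.27, Stx11 at 2.40 and Unc13d, a priming factor of granule release in blood cells, at 1.93. Vamp8 rose by 1.86, Syngr2 by 1.77, Snap23 by 1.15 and Vamp3 by 0.70. The other 7 had no call, among them Vamp4 at -0.44 (adjusted p = 1.01e-05) and Sytl2 at -0.36 (adjusted p = 0.000746), whose SCI mice lay below Sham. Several of these are expressed in myeloid cells, whose markers rose in the same mice, and their part was not tested.

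**Figure D4:**
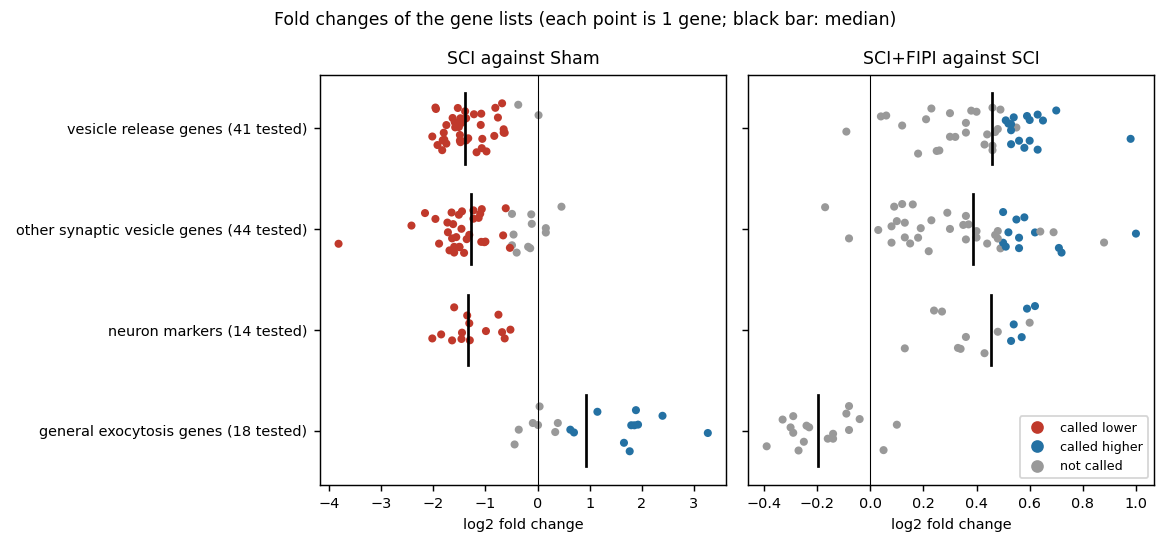
Log2 fold change of each gene for the 41 members, the 44 neuronal pathway genes, the 14 neuron markers and the 18 general exocytosis genes tested, with a black bar at each list's median. In SCI against Sham the first 3 lists have medians of -1.40, -1.27 and -1.33 and the last 0.92, and in SCI+FIPI against SCI they are 0.46, 0.38, 0.46 and -0.20.

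The same changes can be read relative to the neuron markers. With libraries scaled by the median log ratio over the 14 markers, an alternative added after the data were seen, every gene moved by the same amount, 1.33 in the median of all genes for SCI against Sham. On that scale 9 of the 41 genes were called higher and 5 lower, against 80.9% and 1.14% of all genes tested, and the differences among the 41 stayed as they were. The higher ones were Stx1a, Syngr1, Vamp2, Syt4, Syt6, Syt11, Syt12, Doc2b and Rab3b, and the lower ones Snap25, Syt2, Rims1, Rab3c and Pclo. In SCI+FIPI against SCI, 1 was higher, Doc2a, and 1 lower, Stx1a, against 0.198% and 34.7% of all genes, while the median of all genes moved by -0.46. Changes in this scale are relative to the marker genes and are not changes in the amount of RNA.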

How the data were processed

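RNA-seq of spinal cord from 9 mice was analysed. The authors deposited the number of reads per gene as raw counts (52550 genes), not normalized. GRCm38 and R 4.2.3 are named in the submitters' processing notes. The aligner, counting program, annotation and use of strand are not given in the sources used here. GENCODE M21 held 52403 of the gene identifiers. Counts were analysed with edgeR 4.0.16 in R 4.3.3 (TMM factors, filterByExpr by group, robust quasi-likelihood with one mean per group over all 9 mice), and the 2 limits are those in the paper's methods, where no test is named. P-values measure the spread between these mice only. FPKM used the union of exons. Ratios used CPM with 0.5 added. The members and the lists were chosen with earlier results of these data known. The text names all members, the 3 largest rises and falls called in the pathway lists, and the vesicular transporters. Given in full are the member with the highest mean CPM in each role and the 3 highest and lowest in each comparison. Alternatives were RLE and upper-quartile factors, other filters, a replicate block, GC and length offsets (span 0.4), fits to 2 groups, DESeq2 1.42.0, limma-voom 3.58.1, the adjusted p alone, left-out mice, and scaling to neuron markers. The test was checked on simulated data. Figures used Python 3.11.15 with matplotlib 3.10.9. A pair of genes, with 1 ratio, is not reported by name here but is included in the counts over lists and pairs.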

Additional observations from a re-analysis of the deposited data

How the results depend on the processing

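Over all alternatives other than scaling to the neuron markers, 2253 of 2337 fits of single members kept their direction and side of the limits, 53 lost a call, 24 gained one and 7 turned direction. The total covers all 3 comparisons and includes members without a call. Of the lost calls, 51 were in SCI+FIPI against SCI and 2 in SCI+FIPI against Sham. Members called lower in SCI against Sham numbered 39 with DESeq2 (21.9% of all genes) and with limma-voom (22.6%). In SCI+FIPI against SCI, members called higher numbered 17 with DESeq2 (2.54% of all genes) and 15 with limma-voom (2.39%). With the adjusted p alone there were 28 (6.04%), and with 1 mouse left out 6 to 21 (0.87% to 4.09%). Of the neuronal pathway and general exocytosis genes together, 12 were called in SCI+FIPI against SCI, and 23 with the adjusted p alone. With 1 mouse left out there were 4 (without SCI mouse 3 or SCI+FIPI mouse 2) to 18 (without SCI mouse 1). The shares of all genes called higher and lower were 2.36% and 0.695%, and with the adjusted p alone 6.04% and 3.58%. They were 0.964% and 0.293% without SCI mouse 3, 0.87% and 0.121% without SCI+FIPI mouse 2, and 4.09% and 1.35% without SCI mouse 1. Scaled to the neuron markers, chosen after seeing the data, members called higher and lower numbered 9 and 5 in SCI against Sham (80.9% and 1.14% of all genes). They numbered 1 and 1 in SCI+FIPI against SCI (0.198% and 34.7%), and 4 and 2 in SCI+FIPI against Sham (69.4% and 0.727%). That scaling moves every gene by the shift in its markers. The difference of Stx1a between SCI and Sham became -0.046 with upper-quartile factors, -0.29 with GC and length offsets, -0.29 with the replicate block and offsets, and -0.031 to 0.072 with 1 mouse left out, below 0 without Sham mouse 3 (-0.031) or SCI mouse 3 (-0.006). That of Syt4 between SCI+FIPI and SCI ran from -0.018 to 0.12, below 0 without SCI+FIPI mouse 1 (-0.018) or SCI mouse 3 (-0.016). The cause was not tested. The GC and length offsets moved the median of all genes by -0.13 in SCI against Sham. With the replicate number as a block, the fit called 39 members lower in SCI against Sham, 15 higher in SCI+FIPI against SCI and 35 lower in SCI+FIPI against Sham. Of all genes it called 22.3%, 2.29% and 16.8% in those comparisons and directions. The labels do not say whether the numbers pair mice. Deviations of same-numbered mice correlated at -0.073 to 0.108 and those of other mice at -0.108 to 0.089. Of the 9 mice, 2 correlated best with their own number in both groups. With 3 mice a group these values cannot decide whether mice were paired. Genes with few counts, such as Doc2a and Syt10, are measured with low precision.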
